A study of Mus musculus with 30 samples.

Results

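The genes described here code for mitochondrial ribosomal proteins. They are the 74 genes whose name on the array begins with Mrpl (45 genes, named for the large subunit) or Mrps (29 genes, named for the small subunit) followed by a digit, out of 21689 named genes. Levels were measured in immortalised mouse embryonic fibroblasts (MEFs), wild type or lacking p38α, the stress-activated kinase encoded by Mapk14. Wild type cells were stressed with 25 ng/ml anisomycin, an inhibitor of protein synthesis, for 45 min, with 100 ng/ml of the cytokine TNFα for 45 min, or with 100 mM NaCl for 45 min, 2 h or 8 h. They also received the p38 inhibitor SB203580, alone or before each of these 5 stresses. The p38α-/- cells were left untreated or were stressed with anisomycin for 45 min, TNFα for 45 min or NaCl for 2 h. The treatment protocol gives the inhibitor as 10 µM for 30 min before stress, whereas the sample titles write 10 mM and 2 h, so its time and dose are given here as in the protocol. Each of the 15 groups had 2 arrays, from independent experiments, and every array set 1 treated sample, labelled with Cy5, against a common pool of 2 untreated wild type cultures, labelled with Cy3. No array had the dyes exchanged, so a constant offset between the dyes cannot be told apart from a constant difference from the pool. The pool was the only untreated wild type material, and its own spread does not enter any test. Both genotypes were immortalised lines, and the sources used here do not say how many independent lines were used. All values are log2 ratios of the sample over the pool unless stated, and a call is an adjusted p under 0.05 in a limma-type fit of all genes measured.

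The mitochondrial ribosome translates the few messages encoded by mitochondrial DNA, all of them for subunits of the respiratory chain and ATP synthase. Its proteins are encoded in the nucleus, made in the cytosol and imported, and many have no counterpart in bacterial ribosomes. Some names are historical. The product of Mrps30 sits in the large subunit, and that of Mrps36 is now known as a subunit of the α-ketoglutarate dehydrogenase complex. Promoters of such genes are known for sites of ETS family factors including GABP, of NRF1 and of YY1.

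The promoters are shown first because the genes share sequence features that the choice by name did not use. RefSeq promoter windows (build GRCm38.p6, 250 bases before to 50 after the first base of the transcript, first listed window per gene) were at hand for 65 of the 74 genes. Searched on both strands, the ETS motif CCGGAAG was in the windows of 23 of these 65 (35.4%) against 9.12% of all 27025 genes with a window. The NRF1 motif CGCATGCGC was in 7 (10.8%) against 1.81%, and the YY1 motif ATGGCGGC was in 12 (18.5%) against 2.38%. With only the 250 bases before the start, the YY1 motif was left in 1 gene, so nearly all its matches lay after the first base. The E box CACGTG was in 5 genes (7.69%) against 7.24%, and TATAAA in 4 (6.15%) against 14.2%. Matches of different motifs did not overlap, whereas the NRF1 letters can match themselves on both strands 1 base apart. At least 1 of the ETS, NRF1 and YY1 motifs was in 33 genes (50.8%) against 12.4% of all genes. The first base of another gene on the opposite strand lay within 1000 bases upstream for 23 of the 65 genes (35.4%) against 10.5% of all genes, and Mrpl46 and Mrps11 faced each other across 42 bases. These are matches of letters, not measured binding. The 100 bases before the start of 4 genes named below are given 5′ to 3′, with motif matches in capitals.
Mrps16, chr14:20393491-20393590, minus strand: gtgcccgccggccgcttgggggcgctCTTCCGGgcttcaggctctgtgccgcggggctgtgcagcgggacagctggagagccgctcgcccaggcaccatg
Mrpl17, chr7:105811088-105811187, minus strand: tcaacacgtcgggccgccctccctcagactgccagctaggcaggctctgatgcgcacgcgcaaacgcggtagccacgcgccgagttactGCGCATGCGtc
Mrps22, chr9:98601680-98601779, minus strand: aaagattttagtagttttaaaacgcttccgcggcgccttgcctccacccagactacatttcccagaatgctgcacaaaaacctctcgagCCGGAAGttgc
Mrps6, chr16:92058236-92058335, plus strand: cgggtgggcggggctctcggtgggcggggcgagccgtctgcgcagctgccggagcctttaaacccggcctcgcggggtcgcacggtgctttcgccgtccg
The capitals mark the ETS motif in Mrps16 and Mrps22 and the NRF1 motif in Mrpl17. Mrps6 had none of the 5 motifs in this stretch. Neither had Mrps15, Mrps23, Mrpl50, Mrpl44, Mrpl45, Mrps14 and Mrpl35, which are also named below and whose sequences are not printed.

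All 74 genes had a probe well above background in both channels on all 30 arrays, so the genes were readily detected. They were covered by 118 probes, 44 genes by 1 and 30 by several. The scanner software marked 6.78% to 44.8% of the spots of an array as outliers, and these were left out, so an array measured between 35 and 70 of the 74 genes. Of the 74, 27 were measured on all 30 arrays and 6 (Mrpl10, Mrpl12, Mrps11, Mrps18a, Mrps31 and Mrps34) on both arrays of no group. In at least 1 of the 23 comparisons 48 of the 74 were called, beside 51.9% of all genes on the array, and 26 were called in none. The knocked-out gene Mapk14 was below the pool on all 6 p38α-/- arrays that measured it, from -2.24 to -0.94, and above it on all 16 such wild type arrays. All 10 fibroblast markers were well above background on every array, but so were 4 of 4 blood and 2 of 2 epithelial markers, so this call does not separate cell types. Fewer cells and less RNA per cell cannot be told apart in these samples.

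**Figure D1:**
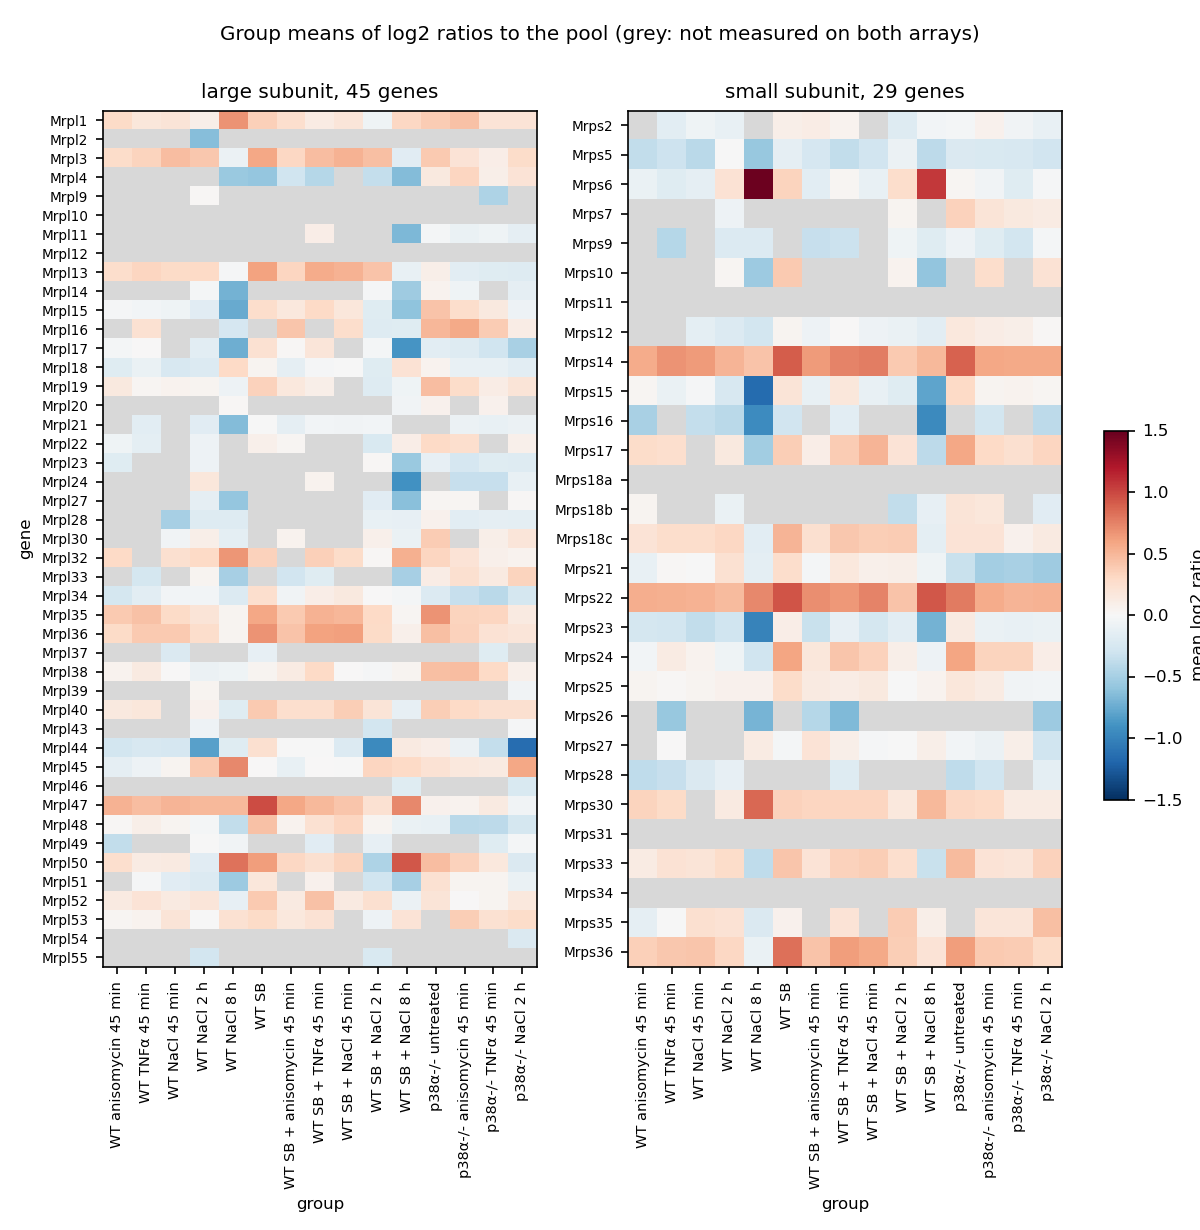
Mean log2 ratio to the untreated pool (colour) of each mitochondrial ribosomal protein gene (rows, large subunit left and small subunit right) in each of the 15 groups (columns, 2 arrays each). Mrps6 is highest in the 2 NaCl 8 h columns, Mrpl44 is lowest in the 3 NaCl 2 h columns, and Mrps14 and Mrps22 are above 0 in every column.

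As a group the genes stayed close to the pool. The median over the genes measured on an array lay between -0.31 (wild type NaCl 8 h, first array) and 0.37 (SB203580 alone, first array), while the median over all genes was within 0.02 of 0 in every group. Cytosolic ribosomal proteins, 86 genes on the array, gave a different picture: their group median was 0.48 after NaCl 2 h, where that of the mitochondrial set was -0.01. Within the mitochondrial set the spread of the 15 group means was widest for Mrps6 (1.65), Mrps15 (1.46), Mrpl50 (1.40), Mrpl44 (1.38), Mrpl15 (1.18), Mrps23 (1.14), Mrpl47 (1.03) and Mrps36 (0.92), among the 27 genes with all means. It was narrowest for Mrps25 (0.33), Mrps14 (0.51) and Mrps22 (0.52). One probe of Mrpl47 was well above background on 6 arrays only, which touches its range. Mrps14 and Mrps22 were nevertheless far from the pool: all 30 arrays were above 0 for both, with medians of 0.64 and 0.61, and this held in both genotypes.

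**Figure D2:**
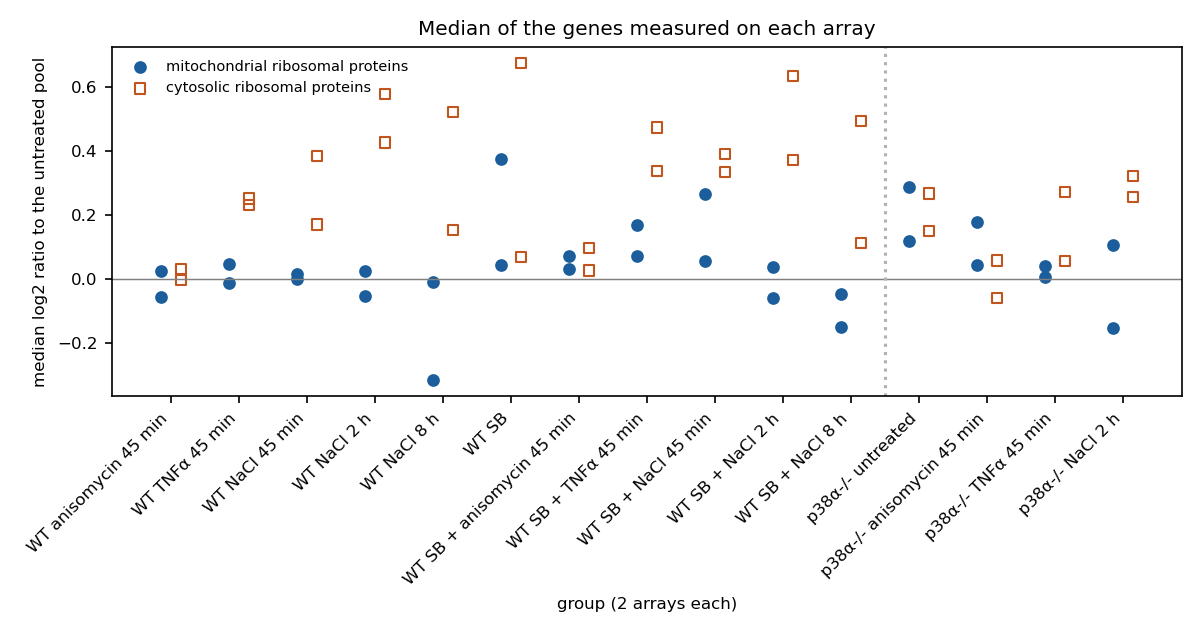
Median log2 ratio to the pool on each array, for the mitochondrial (filled circles) and the cytosolic (open squares) ribosomal protein genes, by group; the dotted line separates wild type from p38α-/- groups. The mitochondrial medians run from -0.31 to 0.37, and the 2 arrays of SB203580 alone and of NaCl 8 h lie far apart.

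The question for NaCl is how these genes move as osmotic stress lasts. After 8 h in NaCl, genes were called in both directions in wild type cells. Of 52 genes measured, 16 fell, against 11.2% of all genes lower, and 7 rose, against 11% higher, and the median over the 52 was -0.17. The share that rose was near that of all genes. The 3 genes that fell most are small subunit genes. Mrps16, a counterpart of bacterial S16, was -0.76 and -1.13 on the 2 arrays, a difference from the pool of -0.94 ± 0.10 (SE, adjusted p = 4.35e-05). Mrps23, which has no bacterial counterpart, was -1.22 and -0.77 (-1.0 ± 0.13, adjusted p = 3.71e-05). Mrps15, whose bacterial counterpart binds the ribosomal RNA early in assembly, was -1.44 and -0.87 (-1.15 ± 0.19, adjusted p = 0.000266). Both arrays were below 0 for all 3 genes, and Mrps16 was below the pool on all 23 arrays of the series that measured it, from -1.13 to -0.06. Mrps5 fell by 0.57, Mrpl15 by 0.75 and the other 11 called genes by 0.28 (Mrps12) to 0.74 (Mrpl17), also with both arrays below 0. Of the genes whose numbers were listed as having a bacterial homologue 13 of 31 measured fell and 3 rose, and of the remaining genes 3 of 21 fell and 4 rose. The list was set by gene number and may leave out some homologues. This split was not tested. By subunit, 8 of 31 large and 8 of 21 small subunit genes fell. Without the first array 8 genes were called lower, and without the second 16 were.

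The genes that rose after 8 h were led by Mrps6, at 1.18 and 1.77 (1.47 ± 0.15, adjusted p = 1.96e-06). Mrpl45, a mitochondrial protein with similarity to the import factor Tim44 that ties the ribosome to the inner membrane, was 0.58 and 0.85 (0.72 ± 0.08, adjusted p = 7.72e-06). Mrps30 was 0.42 and 1.30 (0.86 ± 0.14, adjusted p = 0.000335). Both arrays were above the pool for each, although those of Mrps30 lay far apart. Mrpl1, named for the L1 stalk, rose by 0.67, Mrpl50 by 0.82, Mrpl32 by 0.66 and Mrps22 by 0.72, and Mrps22 was above the pool in every group. Without the second array 2 genes were called higher, and without the first 7 were. Among the called genes with a promoter window, 10 of the 14 that fell and 4 of the 7 that rose held an ETS, NRF1 or YY1 motif. Of all 65 mitochondrial ribosomal protein genes with a window, 33 (50.8%) did. A link between motif and direction was not tested.

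**Figure D3:**
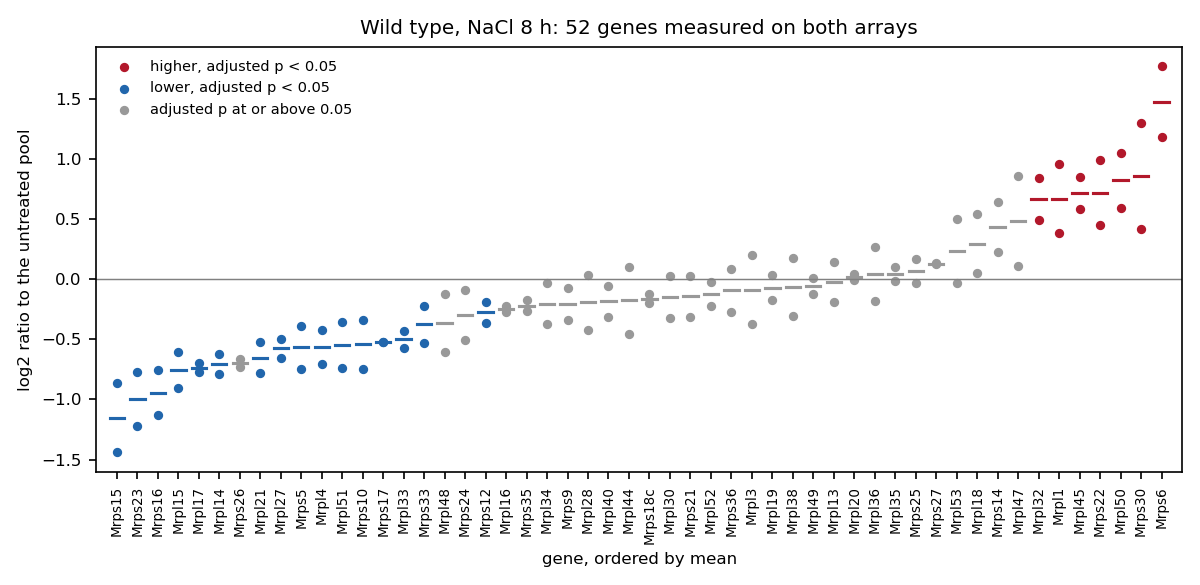
Log2 ratio to the pool after 8 h in NaCl in wild type cells, for the 52 genes measured on both arrays, ordered by mean; points are arrays and bars are means. The 16 called lower (blue) run from Mrps15 at -1.15 to Mrps12 at -0.28, and the 7 called higher (red) end with Mrps6 at 1.47.

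The values of Mrps6 came from 2 probes that did not move alike. The first probe read 2.44 and 2.95 after 8 h in NaCl, a 6.46-fold rise (2.69 ± 0.12, adjusted p = 4.63e-10 over all probes), and 1.83 and 2.16 with SB203580 added (1.99 ± 0.12, adjusted p = 8.51e-08). On the same arrays the second probe read -0.08 and 0.59, and -0.27 and 0.51 with SB203580. Both probes carry the same RefSeq accession, so the mean of 1.47 rests on 1 probe. The first probe was near the pool at every other time and in every other group, between -0.27 and 0.49 on the other 26 arrays. The second probe was measured on 15 of the 30 arrays. Mrps6 lies on chromosome 16 at 92058336 to 92112227 (GRCm38.p6), and its span overlaps that of Slc5a3, which codes for the sodium and myo-inositol cotransporter known to be induced by hypertonicity, at 92058322 to 92087473. The single Slc5a3 probe read 0.21 and 0.05 after 8 h, and 0.02 and 0.08 with SB203580. It did not pass the test in either group.

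Mrps15, Mrps30 and Mrpl35 also had probes that disagreed. One Mrps15 probe read -1.44 and -1.56 after 8 h in NaCl (-1.5 ± 0.19, adjusted p = 2.2e-05), whereas the other, designed from a cDNA clone sequence, read -0.17 on the array that measured it. The RefSeq probe of Mrps30 read 0.82 and 1.30 (1.06 ± 0.13, adjusted p = 2.14e-05), and its clone probe 0.02 on 1 array. For Mrpl35, which has 3 probes, 1 was 0.58 on both arrays, another -0.56 and -0.09, and the third -0.08 and -0.18. Its values in the other groups below are means over the probes measured, and its single probes are not given there. Both probes of Mrpl50 rose, one to 0.34 and 0.70 and the other to 0.85 and 1.40, and both probes of Mrps23 fell. Fitted probe by probe, 9 genes had a probe higher and 17 a probe lower after 8 h.

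The later time differed from the earlier ones for a smaller set. Between 8 h and 2 h, 8 of 47 genes measured were lower, against 4.47% of all genes, and 4 were higher, against 3.34%. The median difference was -0.24, and -0.40 over the 19 small subunit genes. Mrps6 was higher at 8 h by 1.25 ± 0.21 (adjusted p = 0.00108) and Mrpl50 by 0.99 ± 0.21 (adjusted p = 0.00677), followed by Mrpl1 and Mrps30. Mrps17 was lower by 0.67 on the log2 scale (-0.67 ± 0.15, adjusted p = 0.0111), followed by Mrps5, Mrpl14, Mrps18c, Mrps33, Mrps23, Mrps16 and Mrps15. Of these 8 genes 7 are small subunit genes. Between 8 h and 45 min, 4 of 36 genes were lower, against 3.99% of all genes, and 2 were higher, against 3.54%. Mrps6 (1.60 ± 0.21, adjusted p = 0.000132) and Mrpl45 (0.67 ± 0.12, adjusted p = 0.00145) were the 2 higher, and Mrps15, Mrpl15, Mrps16 and Mrps18c the 4 lower. Against 2 h, 2 genes were called without the first NaCl 2 h array, 5 without the second, 5 without the first NaCl 8 h array and 6 without the second. Against 45 min, 3 were called without either NaCl 45 min array.

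With SB203580 before 8 h in NaCl, genes were again called in both directions. Of 56 genes measured, 16 were lower than the pool, against 10.7% of all genes, and 6 were higher, against 10.5%. The share higher was near that of all genes. Mrps6 was 0.78 and 1.33, Mrpl50 0.81 and 1.06, and Mrps22 0.89 and 0.98. Among the lower genes Mrps16 was -0.88 and -1.03, Mrpl17 -0.80 and -0.98, Mrpl11 -0.73 and -0.63, Mrpl24 -1.06 and -0.75, and Mrps23 -0.82 and -0.59. Mrpl11 and Mrpl24 were not measured on both arrays of NaCl 8 h alone. Without the first array of this group 5 genes were called lower, and without either array 3 were called higher. This group and NaCl 8 h alone share the pool, so each is given by its own values.

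After 2 h in NaCl 1 large subunit gene stood apart. Mrpl44, a protein with a fold like that of RNase III, was -0.72 and -0.90 in wild type cells (-0.81 ± 0.17, adjusted p = 0.00619), -1.11 and -0.81 with SB203580 (-0.96 ± 0.17, adjusted p = 0.00129) and -0.67 and -1.60 in p38α-/- cells (-1.14 ± 0.17, adjusted p = 0.000248). All 6 arrays were below the pool, and the p38α-/- arrays differed most from each other. Each of its 3 probes fell in the p38α-/- group, to -1.28, -0.79 and -1.35. After 8 h the group mean in wild type cells was -0.18, which did not pass the test. Mrpl45 was above the pool in the same 3 groups, at 0.52 and 0.26, at 0.30 and 0.36, and at 0.48 and 0.68. In total 5 of 59 genes were called in wild type NaCl 2 h, against 9.92% of all genes, 7 of 55 with SB203580, against 17.1%, and 10 of 63 in p38α-/- cells, against 18%. Besides Mrpl44 the genes lower in p38α-/- cells were Mrps21, Mrpl17, Mrps16 and Mrps5, and besides Mrpl45 the higher ones were Mrps35, Mrps14, Mrps17 and Mrps22. None of these 3 shares was above that of all genes. Without 1 array, 0 or 1 gene was called in each wild type group and 3 or 4 in p38α-/- cells.

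**Figure D4:**
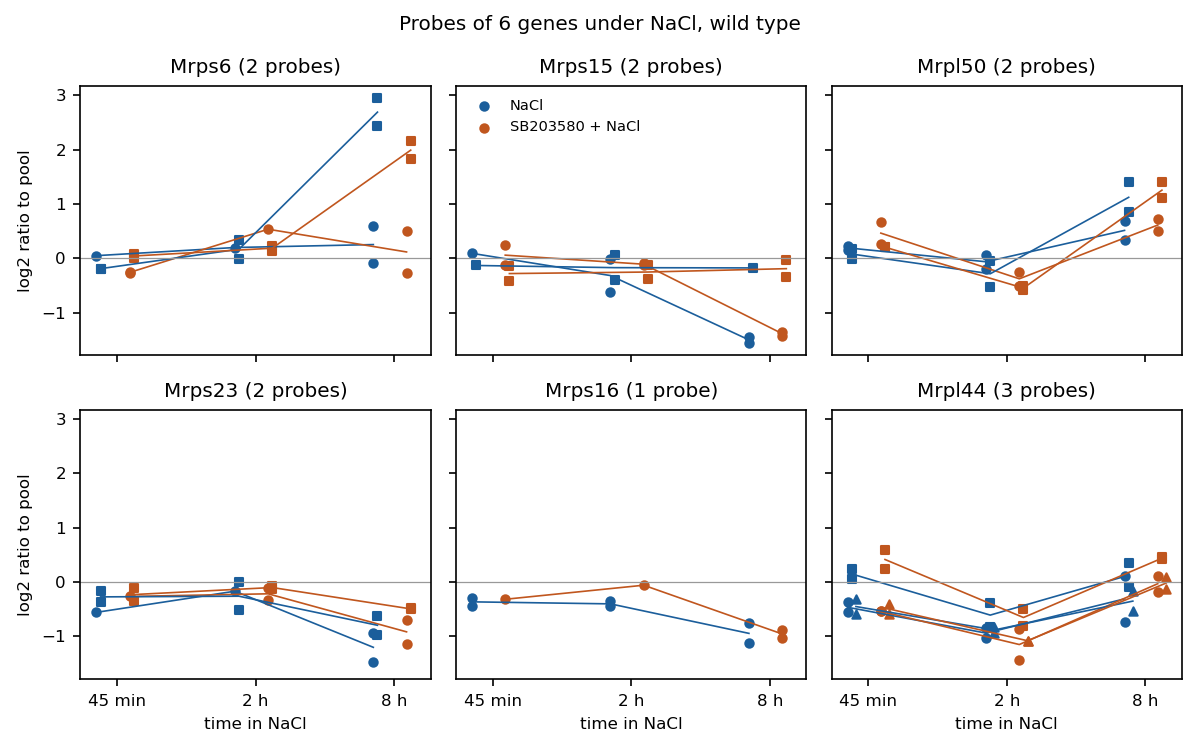
Log2 ratio to the pool of each probe (circles, squares and triangles for different probes of a gene) against time in NaCl for 6 genes in wild type cells, without (blue) and with SB203580 (orange); points are arrays and lines join probe means. Only 1 of the 2 probes of Mrps6 and of Mrps15 moves at 8 h, to means of 2.69 and -1.5 without the inhibitor, while all 3 probes of Mrpl44 are lowest at 2 h.

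After the 45 min stresses few of these genes were called against the pool. In wild type cells 4 of 41 were called with anisomycin, against 12% of all genes, 4 of 44 with TNFα, against 11%, and 4 of 39 with NaCl, against 9.88%. Mrpl35 was higher with anisomycin (0.39 ± 0.12, adjusted p = 0.0343) and TNFα (0.44 ± 0.12, adjusted p = 0.0204), and Mrps14 with TNFα and NaCl. Mrps5 was lower in all 3, by 0.32 to 0.40. Mrps16 was lower with anisomycin, by 0.49, and with NaCl, Mrps28 with anisomycin, Mrps9 with TNFα and Mrpl28 with NaCl. Most of these genes lay on the same side of the pool across the series. Mrps14 was above 0 on all 30 arrays and Mrpl35 on 27 of 30. Below 0 were Mrps5 on 28 of 30, Mrps16 on all 23 that measured it, Mrps28 on 21 of 22, Mrps9 on 25 of 26 and Mrpl28 on 18 of 24. Such calls cannot tell an effect of stress apart from a constant difference from the pool. With SB203580 before the stress most calls were higher: 4 of 44 with anisomycin, all higher, against 11.7% called of all genes, 8 of 49 higher with TNFα, against 5.6%, and 10 of 35 higher with NaCl 45 min, against 8.79%. In these last 2 groups 1 gene, Mrps5, was lower, against 3.91% and 7.97% of all genes. Mrps22, Mrps14, Mrpl35 and Mrpl36 were higher in all 3, for example Mrpl36 by 0.43, 0.60 and 0.61. Without either of its arrays no gene was called in 5 of these 6 groups, and 0 or 2 were in SB203580 with NaCl 45 min.

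SB203580 alone and the loss of p38α without stress were the 2 conditions with no stress, and in both most calls were higher. With SB203580 alone 16 of 45 genes were higher, against 14.7% of all genes, and 1 was lower, against 11.8%, and the median was 0.29. Mrps18c was 0.68 and 0.34 (0.51 ± 0.09, adjusted p = 0.000766), Mrps36 1.14 and 0.52 (0.83 ± 0.15, adjusted p = 0.00119) and Mrps22 1.23 and 0.66 (0.95 ± 0.18, adjusted p = 0.0012). The first array was the higher one for all 3. Mrpl36 was above the pool by 0.67 and Mrpl35 by 0.58. The lower gene was Mrpl4, at -0.87 and -0.30. The 2 arrays of this group differed as a whole, with medians of 0.37 and 0.05 over these genes and of 0.67 and 0.07 over cytosolic ribosomal proteins. Without the first array no gene was called higher, and without the second 24 were. In untreated p38α-/- cells 15 of 52 genes were higher than the wild type pool, against 8.02% of all genes, and 1, Mrps28, was lower, against 6.96%, with a median of 0.19. Mrpl35 was 0.91 and 0.44 (0.68 ± 0.12, adjusted p = 0.000959), Mrps17 0.75 and 0.41 (0.58 ± 0.11, adjusted p = 0.00204), Mrps14 1.17 and 0.59, Mrps22 1.17 and 0.39 and Mrps36 0.86 and 0.41. With outlier spots kept, the medians of these 2 groups were 0.08 and 0.06. Again 1 array was higher throughout, with medians of 0.29 and 0.12, and without it no gene was called higher, nor was Mrps28 called without either array. In a fit of the p38α-/- arrays alone 1 gene was. Across the series Mrps14 and Mrps22 were above 0 on all 30 arrays, Mrps36 and Mrpl36 on 29 and Mrpl35 on 27 of 30. Mrps18c was above 0 on 26 of 30 arrays and Mrps17 on 24 of 29, and Mrps28 was below 0 on 21 of 22. For these genes the calls cannot tell an effect of the inhibitor or genotype apart from a constant difference from the pool.

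Set against the same stress without the inhibitor, SB203580 changed none of the 55 genes measured in the mean over the 5 stresses, against 0.0626% of all genes called. An unadjusted p under 0.05 was reached by 3 genes, and the largest difference was that of Mrps24, at 0.24 ± 0.09 (adjusted p = 1). The median was 0.08, with 45 of the 55 genes above 0, beside 0.05 for 78 cytosolic ribosomal proteins and 0.01 for all genes. The number of arrays limits what could be resolved gene by gene.

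Under stress 5 genes differed between p38α-/- and wild type cells in the mean over anisomycin, TNFα and NaCl 2 h. They were 5 of 57, against 7.65% of all genes, a share near that of all genes. Mrpl4 was higher without p38α by 0.71 ± 0.15 (adjusted p = 0.00991), Mrpl33 by 0.42 ± 0.10 (adjusted p = 0.0207) and Mrpl45 by 0.23 ± 0.07 (adjusted p = 0.0449). Mrps21 was lower (-0.56 ± 0.11, adjusted p = 0.00326), as was Mrpl13 (-0.47 ± 0.12, adjusted p = 0.0199). All 5 except Mrpl45 code for counterparts of bacterial ribosomal proteins. The arrays of both genotypes did not overlap for 4 of them: Mrpl4 lay between -0.67 and -0.41 on the 3 wild type arrays that measured it and between -0.02 and 0.44 on the 6 p38α-/- arrays, Mrpl33 up to 0.07 on 5 and from 0.08 on 6, Mrps21 from -0.15 on 6 and up to -0.38 on 6, and Mrpl13 from 0.06 on 6 and up to 0.05 on 6. Mrpl45 overlapped. Over every array of the series, treated or not, the genotypes stayed apart for Mrps21, with 22 wild type arrays at or above -0.31 and 8 p38α-/- arrays at or below -0.32, and for Mrpl4, with 17 wild type arrays up to -0.09 and 8 p38α-/- arrays from -0.02. Mrpl33 and Mrpl13 overlapped there. The ranges nearly touched for Mrpl33 and Mrpl13 under stress, and for Mrps21 over every array. These genes were called on arrays that the ranges include, so the ranges are a description and not further support. The share of all genes without overlap was not counted.

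**Figure D5:**
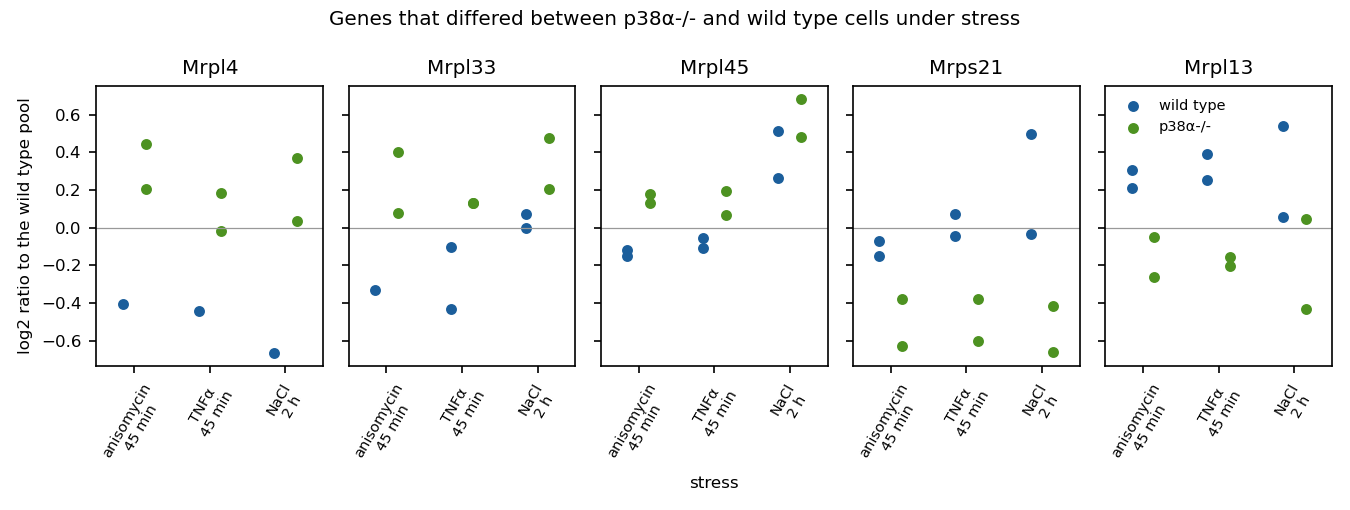
Log2 ratio to the wild type pool of the 5 genes called between genotypes, under 3 stresses; points are arrays of wild type (blue) and p38α-/- cells (green), and a missing point is a spot marked as an outlier. Mrpl4 and Mrpl33 are higher, and Mrps21 and Mrpl13 lower, in p38α-/- cells, while Mrpl45 is higher by a smaller step on top of its rise with NaCl 2 h.

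Scanning fell on 4 days, and the second day held the second wild type arrays and the first p38α-/- arrays. Within that day the difference between genotypes, averaged over the 3 stresses, was -0.47 for Mrps21, -0.31 for Mrpl13 and 0.27 for Mrpl45, and with outlier spots kept 0.58 for Mrpl4 and 0.37 for Mrpl33. The directions were those of the full comparison, but these arrays are part of it, so this is not a separate check. With outlier spots left out, Mrpl4 and Mrpl33 had no mean over the 3 stresses on that day. With scan day as a term in the fit only Mrps21 passed the test (-0.52). Without 1 array, the number of genes called was between 1 and 5, with 1 without the first wild type anisomycin array, 2 without the first wild type TNFα array, the first wild type NaCl 2 h array or the second p38α-/- NaCl 2 h array, and 3 without the second wild type TNFα or the second p38α-/- anisomycin array. With immortalised cells of each genotype, the loss of p38α and other differences between lines cannot be told apart.

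Against untreated p38α-/- cells, stress lowered 1 gene. Mrpl44 was lower after NaCl 2 h by 1.24 on the log2 scale (-1.24 ± 0.24, adjusted p = 0.0151), and it was the only 1 of 51 genes called, against 1.08% of all genes. All 3 of its probes passed the test by themselves. Without the first untreated or the second NaCl array no gene was called, and without the first NaCl array 3 were. Anisomycin and TNFα changed 0 of 50 and 0 of 47 genes, against 0.0847% and 0.078% of all genes, with 0 and 2 genes at an unadjusted p under 0.05. The largest values were -0.34 ± 0.16 for Mrpl35 with anisomycin and -0.46 ± 0.24 for Mrpl44 with TNFα. The medians of the 3 comparisons were -0.11 (0.02 without the first untreated array), -0.19 and -0.21, with 8, 3 and 5 genes above 0, and the first untreated array, shared by all 3, was the one with the higher values above. Against the pool, 5 of 56 genes were called in p38α-/- cells with anisomycin, against 12.4% of all genes, and 1 of 54, Mrps21, with TNFα, against 7.62%. Without 1 array, 0 to 2 and 0 to 1 genes were called there.

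Over the 11 wild type groups together, 14 of 55 genes differed among groups, against 9.68% of all genes. They were Mrps6 (adjusted p = 0.000221), Mrpl45, Mrps17, Mrpl50, Mrpl17, Mrpl15, Mrps18c, Mrpl11, Mrpl24, Mrps16, Mrps23, Mrps15, Mrps33 and Mrpl44, 7 of each subunit. Without the first SB203580 and NaCl 8 h array 7 were called, and without the first SB203580 and NaCl 2 h array 9.

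Other genes of mitochondrial translation were described in the same way. Of 23 such genes on the array (ribosome parts with other names, translation factors, tRNA synthetases, and assembly and rRNA modification factors), 18 were measured after 8 h in NaCl, and 7 were lower and 1 higher, beside 11.2% and 11% of all genes. Tsfm, which codes for elongation factor Ts, was -1.01 and -1.11, Mtif2, for initiation factor 2, -0.97 and -0.36, and Chchd1, for a small subunit protein, -0.48 and -0.68. The higher one was Tufm, for elongation factor Tu (0.21 ± 0.07, adjusted p = 0.0367). Tufm was higher still in some other groups, such as 0.34 and 0.36 with SB203580 and NaCl 2 h. It was lower in others, such as 0.08 and 0.05 with anisomycin in wild type cells. Tsfm was below the pool on all 30 arrays, whereas Mtif2 and Chchd1 were lower at 8 h than at 2 h (adjusted p = 0.0409 and 0.0123). With SB203580 alone 2 of 16 of these genes were higher and 3 lower, beside 14.7% and 11.8% of all genes. In untreated p38α-/- cells 1 of 19 was higher and 3 lower, beside 8.02% and 6.96%. The median in those 2 groups was 0.10 and -0.04, where it was 0.29 and 0.19 for the mitochondrial ribosomal proteins. With outlier spots kept, the medians of the mitochondrial ribosomal proteins were smaller, as given above. On the 2 arrays of SB203580 alone they were 0.37 and 0.05. The difference between the 2 sets of genes was not tested.

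Regulators of nuclear genes for mitochondrial proteins were also measured. Of 8 measured after 8 h in NaCl, 4 were higher and none lower, beside 11% and 11.2% of all genes. They were Yy1, at 0.81 and 1.1, the GABP subunits Gabpa, at 0.69 and 0.50, and Gabpb1, at 0.48 and 0.65, and the coactivator Pprc1. Tfb2m, the mitochondrial transcription factor B2, was taken from a separate list of mitochondrial transcription and RNA genes. It was 1.37 and 1.26 after 8 h, and above the pool on all 30 arrays. From the same list Tfam was -0.18 and -0.34 after 8 h, and Lrpprc was -0.04 on the 1 array that measured it. With SB203580, Yy1 was 0.29 and 0.43 after 8 h. Binding of these factors was not measured. Cytosolic ribosomal proteins rose after 8 h in 28 of 78 genes measured and fell in 2, beside the same 11% and 11.2% of all genes, with a median of 0.38, beside the -0.17 of the mitochondrial set on the same arrays.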

How the data were processed

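The members, gene lists and tests were chosen with earlier results of these data known. The 30 arrays were two-colour Agilent arrays, with treated RNA in Cy5 and the untreated wild type pool in Cy3. Per the file headers, the authors' Feature Extraction software (version 8.1.1.1 there, 9.1 in the submitters' processing notes) detrended the intensity of each spot, normalised the dyes by linear and LOWESS steps and gave the log10 ratio of Cy5 over Cy3. Dim spots received surrogate signals, which shrinks ratios of low signals. The deposited series table holds log2 ratios of the same arrays, with centring and scale judged from the values, and served as an alternative. The genome build of the probes is not given in the sources used here.

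Ratios were converted to log2, control and outlier-flagged spots were left out, and spots were averaged per probe and probes per gene. A gene was tested in a comparison where both arrays of the groups had a value; for means over several stresses, 1 array a group was enough. Group means were fitted over all arrays with limma 3.58.1 (R 4.3.3; empirical Bayes variance with a prior of 3.12 degrees of freedom), tests were two-sided, and p-values were adjusted by Benjamini-Hochberg over all genes measured, with a call under 0.05. The fit was tested on simulated data. Tables and promoter searches used Python 3.11.15 and pandas 2.3.3. The number of arrays, 2 a group, limits the precision. Replicates are independent experiments, and the pool was shared by all arrays.

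Same-numbered arrays deviated together: all 55 pairs of wild type groups (correlation 0.13 to 0.65) and all 6 pairs of p38α-/- groups (0.15 to 0.45) were above 0.1, against 6 of 44 pairs across genotypes, so the replicate number was used as a block within genotype in an alternative. Named genes were the 5 with the smallest adjusted p in each direction of a comparison, the 8 with the widest and the 3 with the narrowest range of group means, Mrps6, genes whose probes disagreed, and the 3 leading other mitochondrial translation genes. Genes named beyond this rule were chosen after their values were seen. Alternatives were normexp background correction with loess, the series table, median centring, the brightest probe, a filter on dim spots, outlier spots kept, the block, scan day, one genotype only, each array left out and, added after seeing the data, each probe by itself.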

Additional observations from a re-analysis of the deposited data

Results flagged for a closer look

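The effect of genotype under stress passed the test of the difference for 5 of 57 genes, beside 7.65% of all genes, in the mean over anisomycin, TNFα and NaCl 2 h (p38α-/- minus wild type, log2). The difference was -0.56 for Mrps21, 0.71 for Mrpl4, -0.47 for Mrpl13, 0.42 for Mrpl33 and 0.23 for Mrpl45. With scan day as a term Mrps21 alone passed, at -0.52, and the part of scan day in the others was not tested beyond that fit. No group held enough arrays for a search for single arrays that stand apart.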

How the results depend on the processing

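For single genes, signs were followed for Mrps6 and the 5 with the smallest adjusted p in each direction of a comparison. Other called genes were not followed, nor were single genes in the fit of each probe. No called difference among those followed reversed its direction under the other alternatives. Uncalled values did: the median over the genes changed sign under 12 alternatives in 9 comparisons, and in 8 cases with 1 array left out, and Mrps6 did under 10 and 11 where it was not called. After NaCl 2 h the median of -0.01 became 0.04 with normexp, and after SB203580 and NaCl 45 min that of 0.26 became -0.01 with outlier spots kept. Of the counts, 218 of 276 alternative values of the leading counts were within 1.5 times the main count. The sum of calls over the 15 groups, 142, became 413 with the series table, 340 with outlier spots kept and 219 with each probe by itself (119 to 172 without 1 array). The series table and outlier spots kept test all 74 genes. How much of the rise in calls came from the added genes was not tested. For NaCl 8 h, the 7 genes higher became 4 with the brightest probe (2 to 7 without 1 array), and the 16 lower became 30 with the series table and 29 with outlier spots kept (8 to 16). For SB203580 alone, the 16 higher became 26 with normexp and 32 with the series table (0 to 24), and the 1 lower became 12 with the series table, 2 with the brightest probe and 16 with outlier spots kept (0 to 1). With SB203580 and NaCl 8 h the leave-one-out counts were 3 higher and 5 to 11 lower. For untreated p38α-/- cells, the 15 higher became 23 with normexp, 30 with the series table and 1 with that genotype alone (0 to 15), and the 1 lower became 11 with the series table, 2 with the brightest probe, 11 with outlier spots kept, 0 with that genotype alone and 2 with each probe (0 without either array). Between NaCl 8 h and 45 min, 6 calls became 26 with the series table, 3 with the brightest probe and 18 with outlier spots kept (3 to 5), and between 8 h and 2 h, 12 became 24 with the series table and 7 with the brightest probe (2 to 6). Between genotypes, 5 became 15 with the series table, 13 with outlier spots kept and 1 with scan day as a term (1 to 5). Between p38α-/- NaCl 2 h and untreated, 1 became 0 with that genotype alone (0 to 3). Among wild type groups, 14 became 29 with the series table and 22 with outlier spots kept (7 to 15). The cause of the other changes was not tested either.

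With the replicate block within genotype, NaCl 8 h had 8 genes higher and 17 lower, SB203580 alone 20 higher and 2 lower, and untreated p38α-/- cells 16 higher and 1 lower. No named gene lost its call under the block. Other settings did cost calls, counted over genes and comparisons. With one genotype only 26 were lost and 95 results stayed the same, and with scan day 4 were lost and 6 stayed. Normexp and the brightest probe lost 11 each, outlier spots kept 3, and the series table and median centring 2 each. The filter on dim spots lost 0. Calls were also lost with 1 array left out.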
